A study of Rattus norvegicus with 325 samples.

Results

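The chemokine and chemokine receptor genes described here were chosen by a symbol of Ccl, Cxcl, Cx3cl, Xcl, Ccr, Cxcr, Cx3cr or Xcr followed by digits alone. They were 49 of the 17315 gene symbols in the files, 34 ligands and 15 receptors, each on 1 line. The levels themselves did not enter this choice. Ccr2 and Ccr8 were not analysed here. Chemokines are small secreted proteins that draw leukocytes along a concentration gradient, and they act through receptors with several membrane passes that couple to inhibitory G proteins. Glycosaminoglycans on endothelium and matrix hold the ligands in place, and atypical receptors take them up without signalling. In skeletal muscle they are known for bringing in neutrophils and monocytes after injury, and in many tissues a subset of them is induced by interferon gamma and attracts T cells.

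RNA was sequenced from 325 libraries of the diaphragm, gastrocnemius, soleus and tibialis anterior of male Sprague Dawley rats, an outbred strain, aged 6, 9, 12, 18, 21, 24 or 27 months. No treatment or genetic change is given for the rats, groups of 1 muscle and 1 age held 9 to 13 libraries, and within a group each library came from another animal. All tissues of an age were collected on 1 day, so age and collection day cannot be told apart. Library totals ran from 17555294 to 85316329 counts (median 31879679), of which the 49 genes took 0.0446%.

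The muscle labels were checked on myosin genes: the slow myosin gene Myh7 had medians of 47512 CPM in the soleus and 2204 in tibialis anterior libraries, and the fast myosin gene Myh4 had 14.2 and 77729. Levels are given in CPM, the count of a gene relative to its library total, scaled by the trimmed mean of M values within a muscle. They are not comparable between genes, whose lengths differ. In 7 libraries the summed level of B or T cell markers was over 5 times its group median. They were 1 diaphragm library at 18 months, 2 at 21 months and 3 at 27 months, and 1 tibialis anterior library at 24 months. Running numbers in the sample descriptions put the gastrocnemius libraries in a series of their own, so the gastrocnemius was not tested against the other muscles.

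Of the 49 genes, 25 passed the filter on low counts in all 4 muscles, 7 in 1 to 3 muscles and 17 in none. The filter needed about 0.276 to 0.358 CPM, depending on the muscle, in about as many libraries as the smallest age group held. The 17 that were too low to judge in every muscle were the ligands Ccl1, Ccl3, Ccl4, Ccl17, Ccl20, Ccl25, Ccl26, Ccl28, Cxcl2, Cxcl3, Cxcl6, Cxcl17 and Xcl1 and the receptors Ccr3, Ccr4, Ccr10 and Cxcr1. None of them was at 0 throughout, since their counts summed over all 325 libraries ran from 5 for Ccl26 to 1317 for Ccl3. Among the 7 in between, Ccl19 could be judged in the diaphragm alone, Ccr9 and Cxcl11 in the tibialis anterior alone, Ccr6 and Cxcr2 in the diaphragm and soleus, Ccr7 in the 3 limb muscles, and Cxcl1 in all but the gastrocnemius. Several ligands could therefore be followed without their receptor, among them Ccl22 without Ccr4 and Ccl11 and Ccl24 without Ccr3, and Ccr9 and Xcr1 without their ligands Ccl25 and Xcl1.

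Cxcl9, Cxcl10 and Cxcl11 are neighbours on 1 chromosome in the RefSeq annotation of the GRCr8 assembly, and all 3 bind Cxcr3. The 250 bases before their annotated starts are shown because Cxcl9 and Cxcl10 rose in the 3 limb muscles and Cxcl11 in the tibialis anterior. GRCr8 is a later assembly than the one the authors counted on. Capitals mark matches to the interferon-stimulated response element, searched as GAAANNGAAA, and to the kappaB consensus, both searched on both strands.
Cxcl9 (GRCr8, chr14:16006916-16007165, + strand): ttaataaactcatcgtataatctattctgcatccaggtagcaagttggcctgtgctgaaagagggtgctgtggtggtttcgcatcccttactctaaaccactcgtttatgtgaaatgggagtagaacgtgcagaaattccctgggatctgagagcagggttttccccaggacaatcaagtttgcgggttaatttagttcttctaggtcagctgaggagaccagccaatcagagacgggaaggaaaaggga
Cxcl10 (GRCr8, chr14:15988816-15989065, + strand): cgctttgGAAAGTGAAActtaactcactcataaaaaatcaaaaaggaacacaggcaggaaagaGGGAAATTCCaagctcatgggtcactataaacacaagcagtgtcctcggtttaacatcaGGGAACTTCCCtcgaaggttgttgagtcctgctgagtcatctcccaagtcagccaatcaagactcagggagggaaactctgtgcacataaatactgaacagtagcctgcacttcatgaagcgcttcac
Cxcl11 (GRCr8, chr14:15973478-15973727, + strand): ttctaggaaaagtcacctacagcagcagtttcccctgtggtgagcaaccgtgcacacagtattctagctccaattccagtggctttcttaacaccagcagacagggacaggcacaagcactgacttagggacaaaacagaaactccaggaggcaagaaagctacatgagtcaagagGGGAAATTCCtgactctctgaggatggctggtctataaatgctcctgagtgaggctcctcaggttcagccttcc
Cxcl10 held 1 match to the interferon-stimulated response element, its first base 243 bases before the start, and kappaB matches that begin 187, 128 and 127 bases before it, the last 2 overlapping. Cxcl11 held 1 kappaB match, beginning 74 bases before its start. In Cxcl9 neither string was found in this window, which says nothing of the factors. Over all 33469 promoters in the table the response element was found in 3.41% and the kappaB consensus in 8.86%. Of the 38 genes described here with a promoter in the table, 2 (Ccl19 and Cxcl10) held the former and 11 the latter.

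To ask how the family behaved with age, each age was compared with 6 months within a muscle in limma-voom, and a gene was called at an adjusted p under 0.05 over all genes tested and a change over 1.5-fold. At 27 months 23 members were called higher and 1 lower in the tibialis anterior, 17 higher in the gastrocnemius, 9 higher and 1 lower in the soleus and 6 higher in the diaphragm. Of all genes tested, 27.6%, 22.8%, 15.0% and 7.52% were called in the same order, in either direction, and 17.2%, 15.1%, 9.21% and 3.27% higher, against 82.8%, 65.4%, 34.5% and 20.7% of the 29, 26, 29 and 29 members tested. The filter favours genes that are high at any age, and 13, 9, 4 and 4 of the members called had a 6-month median under its level, so these shares describe the members tested, not the family. The p-value of such a member can likewise be that of a gene admitted because it was high at an older age. With no filter 30 members were called higher and 1 lower of 48 in the tibialis anterior, 17 higher of 49 in the gastrocnemius, 10 higher and 1 lower of 48 in the soleus and 6 higher of 49 in the diaphragm, where 25.2%, 20.2%, 12.9% and 6.71% of all genes were called in the same order. The median log2 change of the members tested was 1.11, 1.14, 0.64 and 0.27 in that order, against 0.02, 0.04, 0.02 and 0.00 over all genes tested. In bulk tissue, fewer cells of a type and less RNA per cell cannot be told apart.

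**Figure D1:**
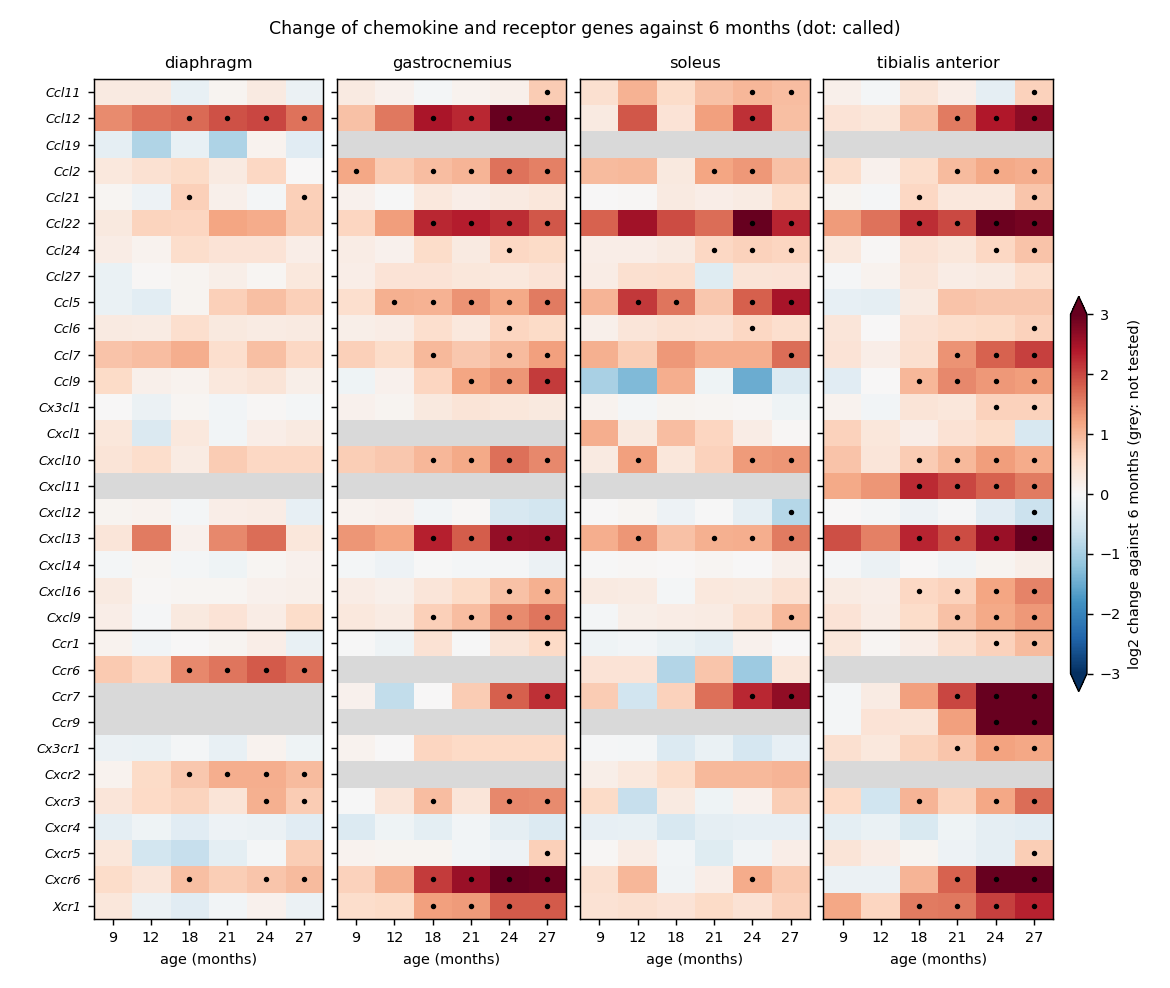
Log2 change of the 32 members tested in 1 or more muscles, ligands above the line and receptors below, with 1 panel per muscle and age in months on the horizontal axis. Red is higher and blue lower than at 6 months, black dots mark called changes, and grey marks members not tested; most dots sit in the tibialis anterior and gastrocnemius from 18 months on.

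No member was called at 27 months in all 4 muscles. Those called in 3 were Ccl7, Ccl11, Ccl22, Cxcl9, Cxcl10, Cxcl13 and Ccr7 in the limb muscles, and Ccl12, Cxcr3 and Cxcr6 in the diaphragm, gastrocnemius and tibialis anterior. Another 10 were called in 2 muscles, 7 in 1 and 22 in none. Of these 22, 17 were too low everywhere, and Ccl19, Ccl27, Cxcl1, Cxcl14 and Cxcr4 were tested and not called. How many of all genes were called in as many muscles is not given here, so these counts show no trait of the family.

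The calls built up over age. In the tibialis anterior 0, 0, 9, 14 and 19 members were called at 9, 12, 18, 21 and 24 months, where the share of all genes called was 0.00851%, 0.196%, 5.45%, 6.47% and 14.5%. The gastrocnemius had 1, 1, 11, 10 and 16 members called, against 0.143%, 0.885%, 4.32%, 5.81% and 18.8% of all genes. The soleus had 0, 3, 1, 3 and 11 (0.123%, 0.353%, 2.84%, 2.61% and 6.51% of all genes) and the diaphragm 0, 0, 5, 3 and 5 (0.108%, 0.532%, 2.25%, 1.68% and 2.68%). Every one of these calls before 27 months was toward higher levels. With no filter, the diaphragm at 18 months had 7 of 49 members called higher and 3 lower, where 2.97% of all genes were called. Where limma called 0 members, 1 and 2 in the diaphragm at 9 and 12 months, 5 and 3 in the tibialis anterior and 4 in the soleus at 9 months passed 1.5-fold at an unadjusted p under 0.05. edgeR and DESeq2 also called 0 there, except for 2 members each in the soleus at 9 months. The earliest call was that of the monocyte attractant Ccl2 in the gastrocnemius, which rose by 1.15 ± 0.27 (adjusted p = 0.0234) at 9 months, on the log2 scale with the SE after the sign. At 12 months the T cell attractant Ccl5 rose there by 1.06 ± 0.30 (adjusted p = 0.0370), and the soleus had Ccl5 at 2.12 ± 0.53 (adjusted p = 0.0130), Cxcl10 at 1.22 ± 0.36 (adjusted p = 0.0440) and Cxcl13 at 1.32 ± 0.35 (adjusted p = 0.0212). In the soleus, diaphragm and tibialis anterior all 12-month libraries belonged to another running series than the 6-month libraries, so 12 months and that series cannot be told apart there.

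**Figure D2:**
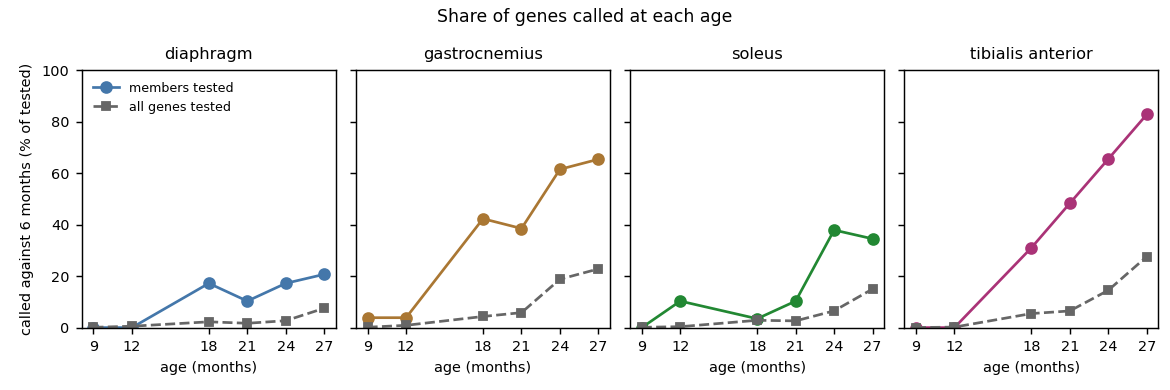
Percent of genes called against 6 months at each age, with 1 panel per muscle. Circles joined by solid lines are the chemokine and receptor genes tested and squares joined by dashed lines all genes tested; at 27 months the circles stand at 82.8% in the tibialis anterior and 20.7% in the diaphragm.

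A model of log2 CPM on age gave most of the called members a straight line. A call and a trend together were found for 22 members of the tibialis anterior, 17 of the gastrocnemius, 9 of the soleus and 3 of the diaphragm (Ccr6, Cxcr2 and Cxcr6), and 19, 16, 7 and 3 of these were linear. Of all genes tested 26.8%, 23.3%, 12.6% and 6.70% had both in the same order. The late forms, with the turn after 21 months, were Ccr7 in the gastrocnemius (21.75 months), Ccr9 in the tibialis anterior (22.25 months) and the falls of Cxcl12 in the tibialis anterior (24 months) and soleus (24.75 months). The early forms, with the turn before 12 months, were Cxcl13 in the soleus (7.75 months) and Cxcl11 in the tibialis anterior (7 months).

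Among the ligands, Cxcl9 and Cxcl10, which interferon induces and which bind Cxcr3 on activated T cells, rose in the 3 limb muscles. Cxcl9 ran from 0.934 to 2.12 CPM (median 1.37) at 6 months and 3.18 to 7.22 CPM (median 4.5) at 27 months in the gastrocnemius, with medians of 1.66 to 4.08 CPM at the ages between. In the soleus it was 1.05 to 2.49 CPM (median 1.58) at 6 months and 1.81 to 4.38 CPM (median 3.27) at 27 months, and in the tibialis anterior 0.423 to 1.30 CPM (median 0.923) at 6 months and 1.23 to 3.16 CPM (median 2.14) at 27 months. The gastrocnemius groups did not overlap, and in the other 2 limb muscles 1 or 2 old libraries reached into the young range. In the order gastrocnemius, soleus and tibialis anterior the log2 change was 1.60 ± 0.16 (adjusted p = 2.6e-13), 0.97 ± 0.16 (adjusted p = 1.4e-07) and 1.31 ± 0.20 (adjusted p = 1.9e-08). In the diaphragm, where Cxcl9 was 1.38 to 3.52 CPM (median 2.45) at 6 months and 1.99 to 5.38 CPM (median 3.73) at 27 months, the change was 0.55 ± 0.21 (adjusted p = 0.0242) and under 1.5-fold. Medians at 9 to 24 months lay at 1.52 to 1.97 CPM in the soleus, 0.997 to 2.02 CPM in the tibialis anterior and 2.39 to 3.16 CPM in the diaphragm.

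Cxcl10 followed with broader overlap. It was 0.246 to 1.13 CPM (median 0.358) at 6 months and 0.725 to 2 CPM (median 0.99) at 27 months in the gastrocnemius. Those of the soleus held 0.144 to 1.16 CPM (median 0.682) at 6 months and 0.471 to 3.58 CPM (median 1.37) at 27 months. Tibialis anterior values were 0.168 to 1.69 CPM (median 0.435) at 6 months and 0.467 to 1.59 CPM (median 1.06) at 27 months. None of the 12 old tibialis anterior libraries lay above the highest young one, at 1.69 CPM, while 8 of 12 did in the soleus and 3 of 11 in the gastrocnemius. The changes were 1.43 ± 0.28 (adjusted p = 1.0e-05), 1.32 ± 0.35 (adjusted p = 0.000838) and 1.11 ± 0.29 (adjusted p = 0.000404). In the diaphragm Cxcl10 was 0.468 to 3.94 CPM (median 0.843) at 6 months and 0.895 to 2.38 CPM (median 1.19) at 27 months, a change of 0.61 ± 0.32 (adjusted p = 0.118) that was not called. Its medians between 9 and 24 months were 0.699 to 1.34 CPM in the gastrocnemius, 0.767 to 1.25 CPM in the soleus, 0.603 to 1.01 CPM in the tibialis anterior and 1.08 to 1.72 CPM in the diaphragm. Cxcl11, judged in the tibialis anterior alone, rose by 1.56 ± 0.48 (adjusted p = 0.00281) from a 6-month median of 0.0453 CPM to 0.109, after medians of 0.111 to 0.184 CPM at the ages between. With levels this near 0, that fitted change depends on the prior count of 0.5. Cxcl10 and Cxcl11 overlap the gene Art3 in the GRCr8 annotation, and whether the authors counted by strand is not given in the sources used here. Art3 changed by 0.02, -0.51, 0.35 and -0.88 for diaphragm, gastrocnemius, soleus and tibialis anterior. Whether its reads entered the counts of Cxcl10 and Cxcl11 was not tested.

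The ligands of monocytes formed a second block. Ccl2, Ccl7 and Ccl12, neighbours on 1 chromosome together with Ccl11, bind Ccr2, and Ccl7 binds other receptors too. Ccl2 was 0.290 to 2.23 CPM (median 0.724) at 6 months and 0.916 to 3.46 CPM (median 1.96) at 27 months in the gastrocnemius. The tibialis anterior held 0.393 to 1.66 CPM (median 0.801) at 6 months and 0.793 to 2.86 CPM (median 1.70) at 27 months. About as many old libraries lay above the young range as within it, 5 of 11 and 6 of 12. It rose by 1.5 ± 0.27 (adjusted p = 1.6e-06) and 1.08 ± 0.27 (adjusted p = 0.000323). In the soleus Ccl2 was 0.826 to 4.31 CPM (median 1.90) at 6 months and 1.67 to 12.8 CPM (median 3.12) at 27 months, a change of 0.87 ± 0.39 (adjusted p = 0.0563) that was not called, although 21 months (1.18 ± 0.39, adjusted p = 0.0295) and 24 months (1.31 ± 0.38, adjusted p = 0.00584) were. The diaphragm stayed at 1.17 to 7.69 CPM (median 2.64) at 6 months and 1.28 to 7.31 CPM (median 2.65) at 27 months, a change of 0.01 ± 0.26 (adjusted p = 0.989). At 9 to 24 months the medians were 1.34 to 2.68 CPM, 0.861 to 1.58 CPM, 2.16 to 4.65 CPM and 3.05 to 4.08 CPM in the order gastrocnemius, tibialis anterior, soleus and diaphragm.

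Ccl7 was 0.0323 to 0.531 CPM (median 0.0993) at 6 months and 0.18 to 1.23 CPM (median 0.509) at 27 months in the tibialis anterior. Gastrocnemius libraries held 0.134 to 0.452 CPM (median 0.287) at 6 months and 0.347 to 1.51 CPM (median 0.634) at 27 months. Those of the soleus held 0.0339 to 0.697 CPM (median 0.163) at 6 months and 0.291 to 1.39 CPM (median 0.529) at 27 months. Old and young libraries overlapped in each, since only 5 of 12, 6 of 11 and 4 of 12 old libraries exceeded the young range. Its changes were 2.06 ± 0.47 (adjusted p = 7.4e-05), 1.22 ± 0.29 (adjusted p = 0.000226) and 1.67 ± 0.51 (adjusted p = 0.00399), and 0.63 ± 0.45 (adjusted p = 0.263) in the diaphragm from 0.0355 to 0.983 CPM (median 0.251) at 6 months and 0.148 to 1.14 CPM (median 0.382) at 27 months, which was not called. The medians in between were 0.157 to 0.394 CPM in the tibialis anterior, 0.354 to 0.535 CPM in the gastrocnemius, 0.238 to 0.452 CPM in the soleus and 0.367 to 0.592 CPM in the diaphragm.

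Ccl12 was met by few reads in any muscle. In the gastrocnemius it was 0 to 0.08 CPM (median 0) at 6 months and 0.0296 to 0.584 CPM (median 0.188) at 27 months, in the tibialis anterior 0 to 0.190 CPM (median 0.0544) at 6 months and 0.0719 to 1.26 CPM (median 0.337) at 27 months and in the diaphragm 0 to 0.642 CPM (median 0.252) at 6 months and 0.209 to 0.876 CPM (median 0.403) at 27 months. The old gastrocnemius and tibialis anterior libraries lay mostly above the young ones, 8 of 11 and 9 of 12, but in the diaphragm only 1 of 12 did. The fitted changes were 3.00 ± 0.55 (adjusted p = 3.1e-06), 2.68 ± 0.52 (adjusted p = 3.7e-06) and 1.64 ± 0.55 (adjusted p = 0.0106), and with so few counts they depend on the prior count. In the gastrocnemius no library from 6 to 21 months exceeded 0.280 CPM, so Ccl12 passed the filter there chiefly through older libraries. These include the libraries tested, so its p-value there is that of a gene admitted because it was high late. The diaphragm call was lost in edgeR (0.71, adjusted p = 0.201) and DESeq2 (0.74, adjusted p = 0.169). In the soleus Ccl12 was 0 to 0.761 CPM (median 0.116) at 6 months and 0 to 1.56 CPM (median 0.378) at 27 months (0.90 ± 0.76, adjusted p = 0.327) and was called at 24 months alone, at 2.18 ± 0.70 (adjusted p = 0.0114). Medians at 9 to 24 months were 0.0416 to 0.236 CPM in the gastrocnemius, 0.0573 to 0.248 CPM in the tibialis anterior, 0.298 to 0.565 CPM in the diaphragm and 0.206 to 0.635 CPM in the soleus.

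Ccl11 and Ccl24 are eosinophil attractants that act through Ccr3. Ccl11 was 0.108 to 1.58 CPM (median 0.455) at 6 months and 0.259 to 2.20 CPM (median 0.911) at 27 months in the soleus. The gastrocnemius ran at 0.354 to 1.20 CPM (median 0.649) at 6 months and 0.695 to 1.5 CPM (median 1.06) at 27 months. The tibialis anterior held 0.159 to 0.656 CPM (median 0.294) at 6 months and 0.227 to 0.832 CPM (median 0.490) at 27 months. The groups overlapped widely, with 2 of 12, 4 of 11 and 3 of 12 old libraries above the young range. It rose by 0.93 ± 0.38 (adjusted p = 0.0302), 0.77 ± 0.23 (adjusted p = 0.00305) and 0.69 ± 0.26 (adjusted p = 0.0138), while the diaphragm, at 0.484 to 3.86 CPM (median 1.90) at 6 months and 0.715 to 3.02 CPM (median 1.71) at 27 months, changed by -0.17 ± 0.26 (adjusted p = 0.613). In between, its medians were 0.651 to 1.06 CPM in the soleus, 0.534 to 0.811 CPM in the gastrocnemius, 0.222 to 0.370 CPM in the tibialis anterior and 1.83 to 2.09 CPM in the diaphragm.

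Ccl24 was 3.70 to 9.79 CPM (median 6.41) at 6 months and 6.20 to 12.8 CPM (median 9.90) at 27 months in the soleus. Tibialis anterior values were 1.68 to 3.76 CPM (median 2.85) at 6 months and 3.31 to 6.83 CPM (median 5.38) at 27 months. Most old libraries lay above the young range there, 8 of 12 and 10 of 12. The changes were 0.64 ± 0.13 (adjusted p = 1.4e-05) and 0.86 ± 0.15 (adjusted p = 2.3e-07). In the gastrocnemius, at 3.62 to 6.11 CPM (median 4.57) at 6 months and 5.56 to 8.95 CPM (median 7.15) at 27 months, it changed by 0.58 ± 0.12 (adjusted p = 2.0e-05), just under the fold threshold at 27 months and just over it at 24 months (0.63 ± 0.13, adjusted p = 1.8e-05). The diaphragm ran from 5.46 to 9.44 CPM (median 7.59) at 6 months and 5.88 to 19.9 CPM (median 8.17) at 27 months with a change of 0.20 ± 0.15 (adjusted p = 0.275). Medians at the ages between were 7.21 to 9.95 CPM in the soleus, 2.87 to 4.25 CPM in the tibialis anterior, 5.43 to 7.36 CPM in the gastrocnemius and 7.82 to 9.82 CPM in the diaphragm.

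Ccl5, Ccl6 and Ccl9 are also neighbours and act through Ccr1. Ccl5, made by T cells among others, was 0 to 0.301 CPM (median 0.0596) at 6 months and 0.0899 to 0.853 CPM (median 0.384) at 27 months in the soleus. Those of the gastrocnemius held 0 to 0.335 CPM (median 0.198) at 6 months and 0.285 to 0.985 CPM (median 0.453) at 27 months. Of the old libraries 10 of 12 and 8 of 11 lay above the young range. It rose by 2.47 ± 0.51 (adjusted p = 2.3e-05) and 1.56 ± 0.29 (adjusted p = 3.1e-06). In the tibialis anterior, at 0 to 0.423 CPM (median 0.0994) at 6 months and 0.0265 to 0.529 CPM (median 0.194) at 27 months, it changed by 0.81 ± 0.46 (adjusted p = 0.101), and in the diaphragm, at 0.0440 to 0.693 CPM (median 0.311) at 6 months and 0.191 to 1.18 CPM (median 0.473) at 27 months, by 0.72 ± 0.36 (adjusted p = 0.0949). Neither was called. Its medians from 9 to 24 months were 0.142 to 0.339 CPM, 0.221 to 0.430 CPM, 0.0874 to 0.217 CPM and 0.214 to 0.473 CPM in the order soleus, gastrocnemius, tibialis anterior and diaphragm.

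Ccl9 was 0.148 to 0.670 CPM (median 0.299) at 6 months and 0.722 to 2.82 CPM (median 1.33) at 27 months in the gastrocnemius. The tibialis anterior held 0.111 to 0.578 CPM (median 0.233) at 6 months and 0.249 to 1.42 CPM (median 0.650) at 27 months. In the gastrocnemius all 11 old libraries lay above the young range, and in the tibialis anterior 8 of 12 did. The changes were 2.09 ± 0.32 (adjusted p = 4.8e-08) and 1.25 ± 0.34 (adjusted p = 0.000670). In the soleus Ccl9 varied from library to library more than with age, at 0.164 to 4.08 CPM (median 0.547) at 6 months and 0 to 5.73 CPM (median 0.497) at 27 months, and changed by -0.41 ± 0.61 (adjusted p = 0.594). The diaphragm held 0.0533 to 0.576 CPM (median 0.223) at 6 months and 0.0814 to 0.717 CPM (median 0.286) at 27 months, a change of 0.17 ± 0.43 (adjusted p = 0.777). Medians in between were 0.274 to 0.708 CPM in the gastrocnemius, 0.262 to 0.788 CPM in the tibialis anterior, 0.232 to 1.26 CPM in the soleus and 0.245 to 0.344 CPM in the diaphragm. Ccl6 was called at 27 months in the tibialis anterior alone (0.69 ± 0.22, adjusted p = 0.00328, 0.658 CPM at 6 months and 1.08 at 27 months in the median), and at 24 months in the gastrocnemius (0.64 ± 0.18, adjusted p = 0.00150) and soleus (0.62 ± 0.19, adjusted p = 0.00783).

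Ccl22, made by macrophages and dendritic cells and a ligand of Ccr4, was barely counted in young muscle. It was 0 to 0.141 CPM (median 0.0537) at 6 months and 0.0286 to 0.748 CPM (median 0.420) at 27 months in the tibialis anterior. Soleus libraries held 0 to 0.456 CPM (median 0.0574) at 6 months and 0 to 1.34 CPM (median 0.577) at 27 months. Those of the gastrocnemius held 0 to 0.220 CPM (median 0.0366) at 6 months and 0.0495 to 0.393 CPM (median 0.241) at 27 months. A share of the old libraries in each stayed within the young range, as 10 of 12, 7 of 12 and 7 of 11 lay above it. The changes were 2.88 ± 0.50 (adjusted p = 4.1e-07), 2.29 ± 0.76 (adjusted p = 0.00833) and 1.86 ± 0.52 (adjusted p = 0.00153), against 0.74 ± 0.41 (adjusted p = 0.135) in the diaphragm, which held 0.0751 to 1.01 CPM (median 0.222) at 6 months and 0.0873 to 0.765 CPM (median 0.411) at 27 months. Its medians at 9 to 24 months were 0.0885 to 0.298 CPM, 0.260 to 0.600 CPM, 0.0732 to 0.331 CPM and 0.256 to 0.492 CPM in that order.

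The lymphoid ligands Cxcl13, Ccl19 and Ccl21 guide B cells through Cxcr5 and T cells and dendritic cells through Ccr7. Cxcl13 was 0 to 0.253 CPM (median 0.1) at 6 months and 0.216 to 2.49 CPM (median 0.907) at 27 months in the tibialis anterior. The gastrocnemius ran at 0 to 0.640 CPM (median 0.153) at 6 months and 0.296 to 2.22 CPM (median 1.60) at 27 months. The soleus held 0.215 to 2.72 CPM (median 0.904) at 6 months and 1.23 to 5.31 CPM (median 2.79) at 27 months. Above the young range lay 10 of 12, 8 of 11 and 7 of 12 of the old libraries. It rose by 3.16 ± 0.61 (adjusted p = 4.2e-06), 2.65 ± 0.53 (adjusted p = 1.7e-05) and 1.57 ± 0.33 (adjusted p = 3.6e-05). In the diaphragm Cxcl13 spread over a wide range already at 6 months, 0.264 to 21.3 CPM (median 1.01) at 6 months and 0.445 to 35.1 CPM (median 1.5) at 27 months, and its change of 0.33 ± 1.15 (adjusted p = 0.840) had the largest SE of any member tested at 27 months. The medians from 9 to 24 months were 0.276 to 0.506 CPM in the tibialis anterior, 0.372 to 1.26 CPM in the gastrocnemius, 1.39 to 2.11 CPM in the soleus and 2.26 to 10.6 CPM in the diaphragm.

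Ccl21, made by lymphatic endothelium, was 3.55 to 7.56 CPM (median 6.19) at 6 months and 5.07 to 14.9 CPM (median 11.2) at 27 months in the tibialis anterior. Diaphragm values were 73.9 to 189 CPM (median 113) at 6 months and 132 to 409 CPM (median 202) at 27 months. Of the old libraries 11 of 12 and 7 of 12 lay above the young range. It rose by 0.84 ± 0.13 (adjusted p = 1.0e-08) and 0.71 ± 0.16 (adjusted p = 0.000201). In the diaphragm the course was uneven, with a call at 18 months (0.71 ± 0.16, adjusted p = 0.00101, median 213 CPM) and none at 21 or 24 months (medians 131 and 118 CPM). In the soleus, at 11.1 to 25 CPM (median 18.2) at 6 months and 15.3 to 34.3 CPM (median 29.3) at 27 months, the change was 0.56 ± 0.11 (adjusted p = 9.1e-06), and in the gastrocnemius, at 7.32 to 16.0 CPM (median 9.81) at 6 months and 6.78 to 17.6 CPM (median 13.3) at 27 months, it was 0.34 ± 0.13 (adjusted p = 0.0171), both under 1.5-fold. Medians between those ages were 5.69 to 8.69 CPM in the tibialis anterior, 17.9 to 22.0 CPM in the soleus and 9.84 to 12.2 CPM in the gastrocnemius. Ccl19 was judged in the diaphragm alone and changed by -0.33 ± 0.32 (adjusted p = 0.418) there. Of 5 lymphatic endothelial markers tested (Lyve1, Prox1, Pdpn and the like), 0, 2, 1 and 3 were called higher for diaphragm, gastrocnemius, soleus and tibialis anterior and 0, 1, 1 and 0 lower. Their summed level ran from 24.3 to 36.1 CPM at 6 months and 32.9 to 49.8 at 27 months in the tibialis anterior, and from 202 to 367 and 258 to 545 in the diaphragm. In the gastrocnemius it was 40.2 to 48.3 and 43.0 to 67.0. In the soleus it was 217 to 247 CPM (median 231) at 6 months and 159 to 255 (median 180) at 27 months, so there the median was lower. The summed level is that of the whole list. Its part in the Ccl21 result was not tested.

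Cxcl16 and Cx3cl1 are the membrane-bound ligands of the family. Cxcl16 was 2.11 to 3.55 CPM (median 2.55) at 6 months and 3.67 to 10.6 CPM (median 7.2) at 27 months in the tibialis anterior. Those of the gastrocnemius held 2.27 to 3.81 CPM (median 2.79) at 6 months and 3.43 to 8.10 CPM (median 6.10) at 27 months. All 12 old tibialis anterior libraries and 10 of 11 gastrocnemius libraries lay above the young range. It rose by 1.48 ± 0.14 (adjusted p = 1.7e-15) and 1.06 ± 0.13 (adjusted p = 2.2e-10), with medians in between of 3.01 to 5.50 CPM and 3.18 to 5.07 CPM. The soleus held 4.45 to 10.1 CPM (median 8.65) at 6 months and 6.88 to 13.5 CPM (median 11.4) at 27 months and changed by 0.45 ± 0.12 (adjusted p = 0.000680), under 1.5-fold. The diaphragm held 6.49 to 13.9 CPM (median 10.4) at 6 months and 8.28 to 19.8 CPM (median 11.3) at 27 months and changed by 0.16 ± 0.13 (adjusted p = 0.324). Medians at 9 to 24 months were 7.69 to 10.3 CPM in the soleus and 10.5 to 13.3 CPM in the diaphragm. Zmynd15, which overlaps Cxcl16 in the annotation, was low (medians under 0.4 CPM in each group at 6 and 27 months) and rose by 1.49 ± 0.46 in the gastrocnemius and 2.28 ± 0.44 in the tibialis anterior. Cx3cl1 was 5.77 to 8.46 CPM (median 6.69) at 6 months and 9.56 to 13.0 CPM (median 10.6) at 27 months in the tibialis anterior, groups that did not overlap, and rose by 0.70 ± 0.07 (adjusted p = 6.4e-14). Its changes in the gastrocnemius (0.30 ± 0.09, adjusted p = 0.00228), soleus (-0.12 ± 0.08, adjusted p = 0.232) and diaphragm (-0.06 ± 0.09, adjusted p = 0.630) were not called.

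Cxcl12, the ligand of Cxcr4 that holds haematopoietic and endothelial progenitors in their niches, was the single member called lower at 27 months. In the soleus it was 321 to 421 CPM (median 364) at 6 months and 162 to 289 CPM (median 199) at 27 months and in the tibialis anterior 183 to 238 CPM (median 214) at 6 months and 107 to 159 CPM (median 137) at 27 months. All 12 old libraries of each muscle lay below the lowest young library. The changes were -0.85 ± 0.07 (adjusted p = 5.7e-18) and -0.64 ± 0.06 (adjusted p = 8.3e-16). In the gastrocnemius, at 139 to 187 CPM (median 161) at 6 months and 97.9 to 129 CPM (median 106) at 27 months, all 11 old libraries were also below the young range but the change of -0.55 ± 0.06 (adjusted p = 1.2e-11) stayed under 1.5-fold, and in the diaphragm, at 384 to 460 CPM (median 422) at 6 months and 296 to 464 CPM (median 351) at 27 months, 10 of 12 were, with a change of -0.25 ± 0.07 (adjusted p = 0.000905). At 9 to 24 months the medians were 321 to 383 CPM in the soleus, 159 to 212 CPM in the tibialis anterior, 114 to 177 CPM in the gastrocnemius and 404 to 482 CPM in the diaphragm. At 24 months they were 325 CPM (soleus), 159 (tibialis anterior) and 114 (gastrocnemius). The 24-month gastrocnemius libraries, at 95.4 to 138 CPM, already lay below the 6-month range. Under total-count scaling, which moved the median of all genes in the tibialis anterior by 0.32, the change there was -0.32 and fell short of 1.5-fold. Its receptor Cxcr4 changed by -0.35 ± 0.11 (adjusted p = 0.00710), -0.42 ± 0.15 (adjusted p = 0.0103), -0.24 ± 0.14 (adjusted p = 0.133) and -0.31 ± 0.12 (adjusted p = 0.0164) for diaphragm, gastrocnemius, soleus and tibialis anterior, none of them past 1.5-fold. Of 10 fibroblast markers tested, 3 were called higher (Pi16 by 1.32, Fbln1 by 1.26 and Mfap5 by 0.68) and 0 lower in the tibialis anterior, and 1 higher (Fbln1, 0.77) and 1 lower (the type I collagen gene Col1a1, -1.17) in the soleus. Of 12 endothelial markers the receptor gene Kdr alone was called, lower in the gastrocnemius (-1.06), soleus (-0.74) and tibialis anterior (-0.77). The part of those cells in the fall of Cxcl12 was not tested.

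**Figure D3:**
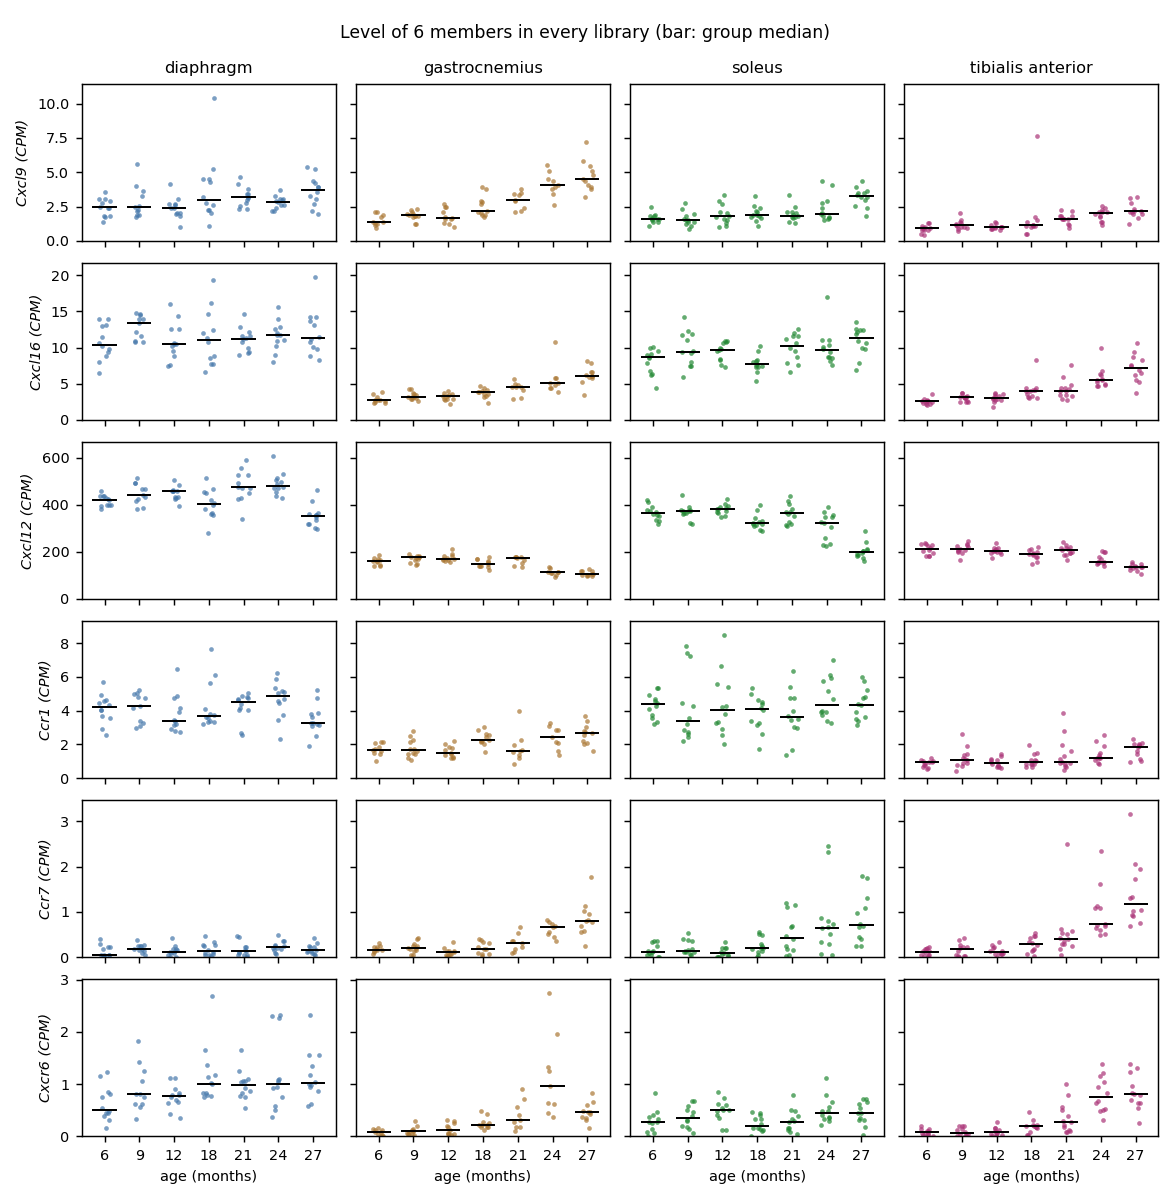
Level in CPM (linear axis from 0, shared along a row) of Cxcl9, Cxcl16, Cxcl12, Ccr1, Ccr7 and Cxcr6 in every library by age in months, with 1 column per muscle. Points are libraries and bars group medians; at 27 months the Cxcl12 points of the soleus and tibialis anterior all sit below the 6-month points, and the Ccr7 and Cxcr6 points of the tibialis anterior all sit above them.

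Of the remaining ligands judged in 3 or 4 muscles, the skin-associated Ccl27 and the broadly expressed Cxcl14 were not called at any age. Cxcl14 was 58.1 CPM at 6 months and 65.6 at 27 months in the median of the diaphragm, 62.4 CPM at 6 months and 58.5 at 27 months in the gastrocnemius, 91.9 CPM at 6 months and 102 at 27 months in the soleus and 68.5 CPM at 6 months and 71.0 at 27 months in the tibialis anterior, and its changes were 0.13, -0.18, 0.15 and 0.17. The neutrophil attractant Cxcl1 changed by 0.26 ± 0.26 (adjusted p = 0.442) in the diaphragm, 0.04 ± 0.70 (adjusted p = 0.965) in the soleus and -0.48 ± 0.42 (adjusted p = 0.299) in the tibialis anterior. Ccl27 changed by 0.31, 0.40, 0.41 and 0.50 for diaphragm, gastrocnemius, soleus and tibialis anterior, and it overlaps Il11ra1, which had medians of 14.0 to 19.4 CPM.

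Among the receptors, Ccr7 rose in the 3 limb muscles. It marks naive and central memory T cells and mature dendritic cells. Ccr7 was 0 to 0.231 CPM (median 0.116) at 6 months and 0.683 to 3.16 CPM (median 1.17) at 27 months in the tibialis anterior. The soleus held 0 to 0.349 CPM (median 0.120) at 6 months and 0.238 to 1.79 CPM (median 0.714) at 27 months. The gastrocnemius ran at 0.0670 to 0.301 CPM (median 0.159) at 6 months and 0.25 to 1.78 CPM (median 0.797) at 27 months. All 12 old tibialis anterior libraries lay above the young range, 10 of 12 did in the soleus and 10 of 11 in the gastrocnemius. The changes were 3.69 ± 0.46 (adjusted p = 3.2e-11), 2.66 ± 0.59 (adjusted p = 9.9e-05) and 2.19 ± 0.33 (adjusted p = 4.2e-08). At the ages between, the medians were 0.113 to 0.723 CPM, 0.0803 to 0.650 CPM and 0.103 to 0.671 CPM in the same order. In the diaphragm Ccr7 was too low to judge, at 0 to 0.399 CPM (median 0.0487) at 6 months and 0.0523 to 0.428 CPM (median 0.154) at 27 months.

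Cxcr6, the receptor of Cxcl16 on activated and tissue-resident T cells, was 0 to 0.188 CPM (median 0.0744) at 6 months and 0.252 to 1.38 CPM (median 0.801) at 27 months in the tibialis anterior. Gastrocnemius libraries held 0 to 0.148 CPM (median 0.0843) at 6 months and 0.148 to 0.832 CPM (median 0.463) at 27 months. Those of the diaphragm held 0.156 to 1.23 CPM (median 0.507) at 6 months and 0.588 to 2.32 CPM (median 1.02) at 27 months. Old and young libraries did not overlap in the tibialis anterior or gastrocnemius, although the gastrocnemius ranges met at 0.148 CPM, and 4 of 12 of the diaphragm lay above the young range. It rose by 3.40 ± 0.45 (adjusted p = 2.8e-10), 2.95 ± 0.51 (adjusted p = 9.2e-07) and 0.96 ± 0.27 (adjusted p = 0.00272). In the tibialis anterior no library at 6, 9 or 12 months exceeded 0.275 CPM, so Cxcr6 passed the filter there chiefly through older libraries. These include the libraries tested. In the soleus, at 0 to 0.824 CPM (median 0.269) at 6 months and 0.0323 to 0.707 CPM (median 0.450) at 27 months, the change at 27 months was 0.78 ± 0.44 (adjusted p = 0.129), not called, and at 24 months 1.12 ± 0.44 (adjusted p = 0.0420). Medians at 9 to 24 months were 0.0646 to 0.748 CPM, 0.0912 to 0.961 CPM, 0.767 to 1.01 CPM and 0.201 to 0.509 CPM, in the order tibialis anterior, gastrocnemius, diaphragm and soleus. Cxcr6 overlaps Fyco1, which changed by -0.50, -0.42, -0.02 and -0.40 in that order. Whether reads of Fyco1 entered the counts of Cxcr6 was not tested.

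Cxcr3, the receptor of Cxcl9, Cxcl10 and Cxcl11, was 0.0550 to 0.284 CPM (median 0.0966) at 6 months and 0.0858 to 0.814 CPM (median 0.437) at 27 months in the tibialis anterior. The gastrocnemius ran at 0.0571 to 0.223 CPM (median 0.123) at 6 months and 0.124 to 0.835 CPM (median 0.331) at 27 months. The diaphragm held 0.248 to 0.576 CPM (median 0.296) at 6 months and 0.343 to 1.02 CPM (median 0.531) at 27 months. In the first 2 most old libraries lay above the young range, 10 of 12 and 9 of 11, and in the diaphragm 5 of 12. It rose by 1.68 ± 0.39 (adjusted p = 7.3e-05), 1.42 ± 0.31 (adjusted p = 8.1e-05) and 0.76 ± 0.30 (adjusted p = 0.0337). Without the 7 libraries rich in lymphocyte markers the diaphragm change was 0.73 (adjusted p = 0.0527) and no longer called. The soleus held 0.0634 to 0.829 CPM (median 0.174) at 6 months and 0.0970 to 0.792 CPM (median 0.314) at 27 months and changed by 0.74 ± 0.46 (adjusted p = 0.170). In between, medians were 0.0926 to 0.246 CPM, 0.141 to 0.371 CPM, 0.381 to 0.576 CPM and 0.166 to 0.342 CPM in the same order with the soleus last.

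Ccr1, a receptor of Ccl5, Ccl6 and Ccl9 on monocytes and macrophages, was 0.563 to 1.16 CPM (median 0.931) at 6 months and 0.935 to 2.30 CPM (median 1.84) at 27 months in the tibialis anterior. Those of the gastrocnemius held 0.996 to 2.14 CPM (median 1.68) at 6 months and 1.63 to 3.69 CPM (median 2.67) at 27 months. Above the young range lay 9 of 12 and 8 of 11 of the old libraries. It rose by 0.94 ± 0.22 (adjusted p = 0.000138) and 0.60 ± 0.16 (adjusted p = 0.00116), the latter barely past 1.5-fold. The soleus held 3.20 to 5.36 CPM (median 4.37) at 6 months and 3.17 to 5.97 CPM (median 4.35) at 27 months and the diaphragm 2.57 to 5.69 CPM (median 4.20) at 6 months and 1.87 to 5.21 CPM (median 3.25) at 27 months, with changes of 0.01 ± 0.17 (adjusted p = 0.966) and -0.23 ± 0.14 (adjusted p = 0.191). Its medians in between were 0.895 to 1.22 CPM, 1.48 to 2.41 CPM, 3.37 to 4.34 CPM and 3.39 to 4.86 CPM in the order tibialis anterior, gastrocnemius, soleus and diaphragm.

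Xcr1, carried by the dendritic cells that present antigen to cytotoxic T cells, was 0.0313 to 0.387 CPM (median 0.107) at 6 months and 0.288 to 1.00 CPM (median 0.537) at 27 months in the tibialis anterior. The gastrocnemius held 0.0315 to 0.241 CPM (median 0.0968) at 6 months and 0.148 to 0.632 CPM (median 0.456) at 27 months. Of the old libraries 8 of 12 and 10 of 11 exceeded the young range. It rose by 2.32 ± 0.36 (adjusted p = 2.4e-08) and 1.83 ± 0.35 (adjusted p = 6.5e-06). The soleus held 0.109 to 1.09 CPM (median 0.497) at 6 months and 0.286 to 1.88 CPM (median 0.854) at 27 months, a change of 0.69 ± 0.32 (adjusted p = 0.0642), and the diaphragm 0.352 to 1.57 CPM (median 1.08) at 6 months and 0.420 to 1.70 CPM (median 0.899) at 27 months, a change of -0.18 ± 0.24 (adjusted p = 0.568). Neither was called. Medians at 9 to 24 months were 0.217 to 0.475 CPM, 0.139 to 0.431 CPM, 0.656 to 0.830 CPM and 0.799 to 1.14 CPM. Clec9a, another gene of those dendritic cells, was among the called markers of the gastrocnemius (1.88) and tibialis anterior (1.72).

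Cxcr5, the Cxcl13 receptor of B cells and follicular helper T cells, was 0.0656 to 0.285 CPM (median 0.167) at 6 months and 0.121 to 0.417 CPM (median 0.211) at 27 months in the gastrocnemius. Tibialis anterior libraries held 0.0262 to 0.420 CPM (median 0.188) at 6 months and 0.124 to 0.429 CPM (median 0.247) at 27 months. The groups overlapped, with 5 of 11 and 1 of 12 old libraries above the young range. The changes were 0.72 ± 0.29 (adjusted p = 0.0273) and 0.74 ± 0.32 (adjusted p = 0.0308), and both calls were lost in edgeR, in DESeq2 and without the filter on low counts (adjusted p from 0.0503 to 0.126). The diaphragm, at 0.101 to 0.564 CPM (median 0.315) at 6 months and 0.271 to 1.03 CPM (median 0.487) at 27 months, changed by 0.74 ± 0.33 (adjusted p = 0.0585) and the soleus, at 0.0339 to 1.04 CPM (median 0.461) at 6 months and 0.171 to 0.797 CPM (median 0.404) at 27 months, by 0.19 ± 0.39 (adjusted p = 0.707). Cxcr5 overlaps Bcl9l, which had medians of 139 to 195 CPM and changed by -0.13, 0.02, 0.22 and 0.49 in the order gastrocnemius, tibialis anterior, diaphragm and soleus. Medians of Cxcr5 in between were 0.133 to 0.171 CPM, 0.126 to 0.211 CPM, 0.184 to 0.414 CPM and 0.296 to 0.456 CPM in that order.

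Ccr9, the receptor of gut-homing lymphocytes and of plasmacytoid dendritic cells, could be judged in the tibialis anterior alone. There 3 counts were found in the 12 young libraries together and 192 in the 12 old ones, a ratio of counts per total of 66.4 with a counting interval of 22.4 to 325 at 95%. At 27 months the libraries ran from 0 to 0.846 CPM (median 0.449), and 11 of 12 lay above the highest young library at 0.0275 CPM. The median was still 0.0266 CPM at 21 months and 0.147 at 24 months. The fitted change was 4.30 ± 0.54 (adjusted p = 6.0e-11), a value that depends on the prior count. Medians were 0 at 6, 9, 12 and 18 months, so Ccr9 passed the filter only through older libraries, which include those tested. Its ratio and p-value are thus those of a gene admitted because it was high there. In the other muscles the 27-month medians were 0.0618 CPM in the gastrocnemius, 0.0402 in the diaphragm and 0.0132 in the soleus. With no filter Ccr9 was also called in the gastrocnemius (1.46 ± 0.49, adjusted p = 0.0104).

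Of the receptors called in a single muscle, Cx3cr1, the Cx3cl1 receptor of patrolling monocytes and resident macrophages, rose in the tibialis anterior by 1.16 ± 0.31 (adjusted p = 0.000570) (0.209 CPM at 6 months and 0.437 at 27 months in the median), and 6 of 12 old libraries exceeded the young range. In the diaphragm 2 further receptors were called. Ccr6, the Ccl20 receptor of B cells and of T helper cells that make interleukin 17, rose there by 1.66 ± 0.40 (adjusted p = 0.000453), from 0 to 0.465 CPM (median 0.216) at 6 months and 0.239 to 1.26 CPM (median 0.659) at 27 months, and 9 of 12 old libraries lay above the young range. Cxcr2, the neutrophil receptor of Cxcl1 and its relatives, rose there by 0.96 ± 0.30 (adjusted p = 0.00603), from 0.316 CPM at 6 months and 0.602 at 27 months. In the soleus, the only other muscle where both could be judged, they changed by 0.35 ± 0.60 (adjusted p = 0.645) and 1.01 ± 0.53 (adjusted p = 0.0991), and the difference from the diaphragm was not called (-1.37 ± 0.60, adjusted p = 0.0628 for Ccr6 and 0.00 ± 0.52, adjusted p = 0.999 for Cxcr2). With no filter both were also called in the tibialis anterior (1.33, adjusted p = 0.00697 and 1.13, adjusted p = 0.00747). Without the lymphocyte-rich libraries the diaphragm changes were 1.45 for Ccr6 and 0.96 for Cxcr2, both still called.

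Whether the change from 6 to 27 months differed between muscles was tested as an interaction in a fit of all 28 groups, and a gene was compared between 2 muscles only where it passed the filter in both. Members too low in 1 muscle of a pair, such as Ccr7 in the diaphragm and Ccr9 in the diaphragm and soleus, were thus not compared in that pair. Between the tibialis anterior and the diaphragm 9 of 26 members differed, all rising more in the tibialis anterior, which is 34.6% against 20.7% of all genes that passed in both. Between the tibialis anterior and the soleus 8 of 27 did (29.6% against 15.4%), and between the soleus and the diaphragm 3 of 28 (10.7% against 11.5%), a share near that of all genes. Xcr1, Cxcr6, Ccr1, Cxcl16, Cx3cl1 and Cx3cr1 rose more in the tibialis anterior than in the diaphragm and more than in the soleus. The difference from the diaphragm was 2.46 ± 0.45 (adjusted p = 6.3e-07) for Xcr1, 2.39 ± 0.54 (adjusted p = 5.8e-05) for Cxcr6, 1.28 ± 0.19 (adjusted p = 1.4e-09) for Cxcl16 and 0.71 ± 0.12 (adjusted p = 1.2e-07) for Cx3cl1. Against the soleus the same genes differed by 1.63 ± 0.47 (adjusted p = 0.00287), 2.62 ± 0.62 (adjusted p = 0.000178), 1.04 ± 0.20 (adjusted p = 2.1e-06) and 0.83 ± 0.12 (adjusted p = 1.8e-09). Ccl22, Ccl24 and Cxcl9 were called between tibialis anterior and diaphragm and not between tibialis anterior and soleus, Cxcl9 at 0.70 ± 0.28 (adjusted p = 0.0257). The Ccl24 difference fell under 1.5-fold with quality weights (0.58) and in edgeR (0.55). The Cxcl9 difference was 0.55 (adjusted p = 0.0799) without the libraries that stand apart from their group and 0.64 (adjusted p = 0.0503) without those rich in lymphocyte markers.

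Ccl5 went the other way, since its rise was smaller in the tibialis anterior than in the soleus (-1.66 ± 0.63, adjusted p = 0.0277) and larger in the soleus than in the diaphragm (1.69 ± 0.58, adjusted p = 0.0135). The soleus also exceeded the diaphragm in Ccl11 (1.05 ± 0.38, adjusted p = 0.0219), and its Cxcl12 fell further (-0.66 ± 0.09, adjusted p = 2.4e-10). Ccl9 rose more in the tibialis anterior than in the soleus (1.68 ± 0.62, adjusted p = 0.0214). The Ccl11 difference was not called with quality weights (0.92, adjusted p = 0.0587) or with the 6 and 27-month libraries of the pair alone (1.08, adjusted p = 0.0729), and that of Cxcl12 fell under 1.5-fold with total-count scaling (-0.49). In edgeR the Ccl9 difference was 1.32 (adjusted p = 0.0624) and those of Ccl5 -1.27 (adjusted p = 0.0656) and 1.27 (adjusted p = 0.0551), none of them called. Without the libraries that stand apart from their group the Ccl5 differences were -1.32 (adjusted p = 0.0996) and 1.13 (adjusted p = 0.137), also not called.

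The muscles already differed at 6 months, in levels scaled over all 4 muscles together. In the tibialis anterior 16 of 26 members were lower than in the diaphragm and 0 higher, 61.5% against 34.1% of all genes that passed in both. The lymphoid ligand Ccl21 was 4.08 to 8.65 CPM (median 7.08) in the tibialis anterior, 10.2 to 22.6 CPM (median 16.3) in the soleus and 66.8 to 168 CPM (median 101) in the diaphragm, ranges that did not overlap between the diaphragm and either limb muscle. In the gastrocnemius, not tested, it was 8.03 to 18.2 CPM (median 10.8). The 5 largest differences between tibialis anterior and diaphragm were -4.16 ± 1.53 (adjusted p = 0.0103) for Cxcl13, -3.96 ± 0.15 (adjusted p = 7.1e-75) for Ccl21, -2.75 ± 0.37 (adjusted p = 3.8e-12) for Xcr1, -2.52 ± 0.48 (adjusted p = 5.7e-07) for Cxcr6 and -2.13 ± 0.32 (adjusted p = 2.7e-10) for Ccl11. Diaphragm libraries of Cxcl13 ran from 0.235 to 18.8 CPM.

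Between the soleus and the diaphragm 8 of 28 members were lower in the soleus and 3 higher (39.3% against 21.3% of all genes). The largest were Ccl21 (-2.72 ± 0.13, adjusted p = 1.7e-60), Ccl11 (-1.89 ± 0.30, adjusted p = 4.7e-09), Ccl5 (-1.89 ± 0.48, adjusted p = 0.000290), Ccl22 (-1.70 ± 0.59, adjusted p = 0.00813) and Cxcl1 (-1.46 ± 0.46, adjusted p = 0.00342), and Ccl9, Cx3cr1 and Cxcl14 were higher. With the 6 and 27-month libraries of the pair alone Ccl22 was not called (-1.69, adjusted p = 0.0527). Ccl19, judged in the diaphragm alone, was 0.167 to 1.14 CPM (median 0.479) there. Between the tibialis anterior and the soleus 11 of 27 were lower in the tibialis anterior and 2 higher (48.1% against 42.2% of all genes). The largest were Cx3cr1 (-2.43 ± 0.31, adjusted p = 3.2e-13), Ccr1 (-1.95 ± 0.22, adjusted p = 4.6e-16), Xcr1 (-1.72 ± 0.39, adjusted p = 3.2e-05), Cxcl16 (-1.28 ± 0.16, adjusted p = 2.4e-14) and Ccl21 (-1.24 ± 0.16, adjusted p = 1.6e-12). The difference in level and the difference in change use the same 6-month libraries. All 9 members that rose more in the tibialis anterior than in the diaphragm were called lower there at 6 months.

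**Figure D4:**
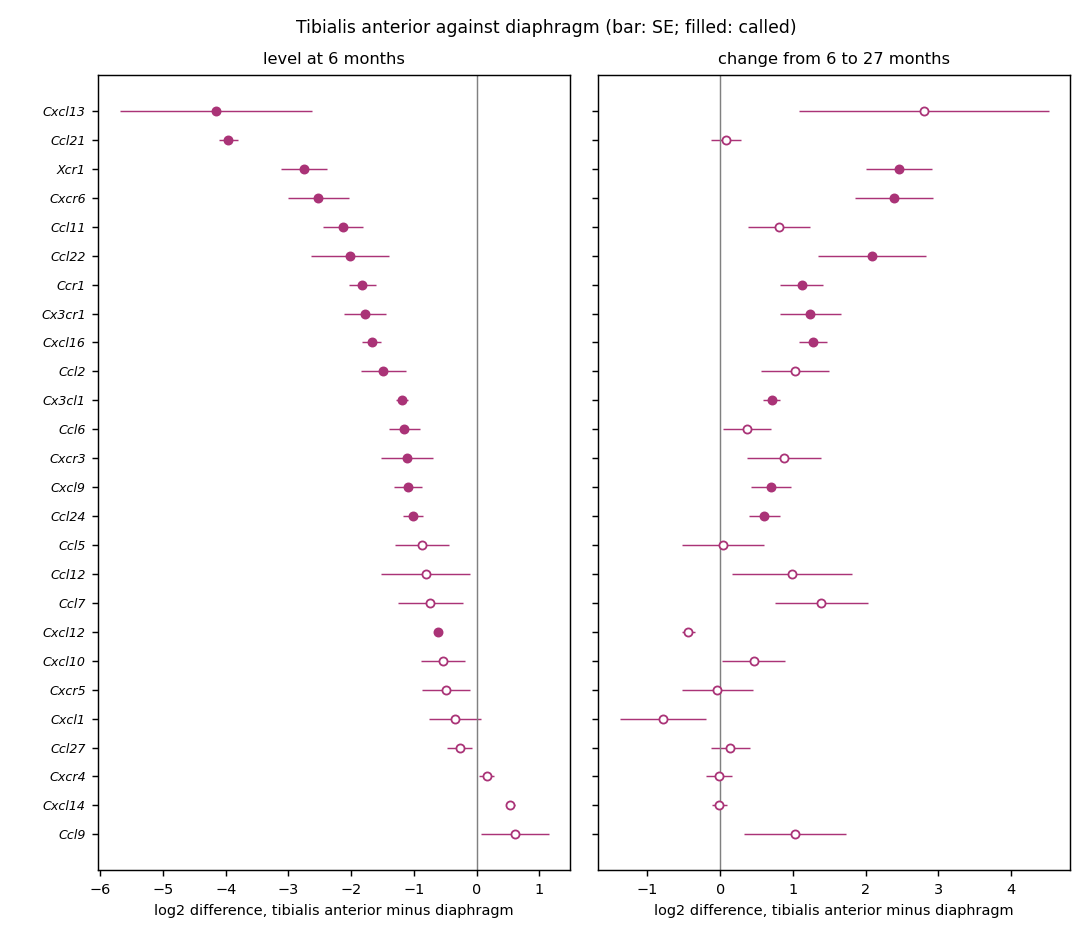
Log2 difference between tibialis anterior and diaphragm for the 26 members that passed the filter in both, in level at 6 months (left) and in the change from 6 to 27 months (right), in the order of the left panel. Points are estimates, bars SE, and filled points called differences; all called points lie below 0 on the left and above 0 on the right, and both panels use the same 6-month libraries.

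The other genes of chemokine biology were read from lists, at 27 against 6 months. Of all genes tested 27.6%, 22.8%, 15.0% and 7.52% were called in the tibialis anterior, gastrocnemius, soleus and diaphragm. A list count near these shares, here or among the cell markers below, shows no trait of the list. Of 36 genes of receptor signalling, 14 were called higher and 1 lower in the tibialis anterior, 10 and 2 in the gastrocnemius, 8 and 0 in the soleus and 2 and 2 in the diaphragm, with median changes of 0.40, 0.23, 0.20 and 0.01. They were led in the tibialis anterior by Pik3r5 (2.56), the adaptor of the phosphoinositide kinase that G proteins activate, Fgr (2.03), a myeloid tyrosine kinase, and Rgs1 (1.82). Vav1 and Rac2, which carry the signal to the cytoskeleton of leukocytes, rose in the 3 limb muscles. Of 9, 9, 9 and 8 atypical receptors and chemokines under other names tested for diaphragm, gastrocnemius, soleus and tibialis anterior, 2, 1, 1 and 3 were higher and 0, 1, 0 and 1 lower. Platelet factor 4 (Pf4) rose in the diaphragm (0.86), gastrocnemius (0.85) and tibialis anterior (1.90), and Ackr3, which scavenges Cxcl12, fell in the gastrocnemius (-0.73) and tibialis anterior (-0.96). Of the cytokines and transcription factors that induce chemokines, 1 of 20, 7 of 19, 6 of 20 and 7 of 19 rose in the order diaphragm, gastrocnemius, soleus and tibialis anterior and 0 fell, with medians of 0.14, 0.37, 0.43 and 0.45. Nfkb2 rose in all 4 muscles (0.72, 0.92, 1.16 and 1.26), and Irf8, Il1b and Il18 in the 3 limb muscles. The largest called change of each muscle was that of Irf8 in the tibialis anterior (1.82), Il6 in the soleus (1.74), Il18 in the gastrocnemius (1.59) and Nfkb2 in the diaphragm (0.72). Of 11 genes that make or carry glycosaminoglycans, 0, 0, 1 and 0 were higher and 0, 2, 1 and 0 lower, with medians of -0.09 to 0.04.

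Macrophage and T cell markers were mostly called higher in the gastrocnemius and tibialis anterior, and less often in the soleus and diaphragm. Of 15 macrophage markers tested, 0, 13, 4 and 13 were called higher for diaphragm, gastrocnemius, soleus and tibialis anterior and 0 lower, and Marco had 0 counts at both ages in all but the soleus. Their median log2 change was 0.34, 0.93, 0.51 and 1.35. Their summed level ran from 163 to 249 CPM at 6 months and 279 to 487 at 27 months in the gastrocnemius, and from 73.8 to 120 and 149 to 322 in the tibialis anterior. In the soleus it was 307 to 585 and 503 to 688, and in the diaphragm 260 to 506 and 401 to 871, ranges that overlap. Of 12, 9, 9 and 9 T cell markers tested, 5, 7, 4 and 9 were higher and 0, 0, 1 and 0 lower, with medians of 0.67, 1.26, 0.69 and 1.67. Their sum was 8.93 to 13.4 CPM at 6 months and 24.8 to 48.0 at 27 months in the gastrocnemius, 5.56 to 8.54 and 16.1 to 52.1 in the tibialis anterior, 16.7 to 28 and 31.7 to 87.7 in the soleus, and 19.0 to 28 and 21.2 to 44.2 in the diaphragm. The costimulatory receptor gene Cd28 had the largest T cell change of the gastrocnemius, soleus and tibialis anterior (4.45, 3.69 and 3.58), and in the diaphragm it changed by -0.31, which was not called. The common leukocyte gene Ptprc changed by -0.13 (adjusted p = 0.562), 1.26 (7.1e-12), 0.34 (0.0397) and 1.11 (1.9e-08) in the order diaphragm, gastrocnemius, soleus and tibialis anterior. The part of leukocyte number in the results above was not tested.

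**Figure D5:**
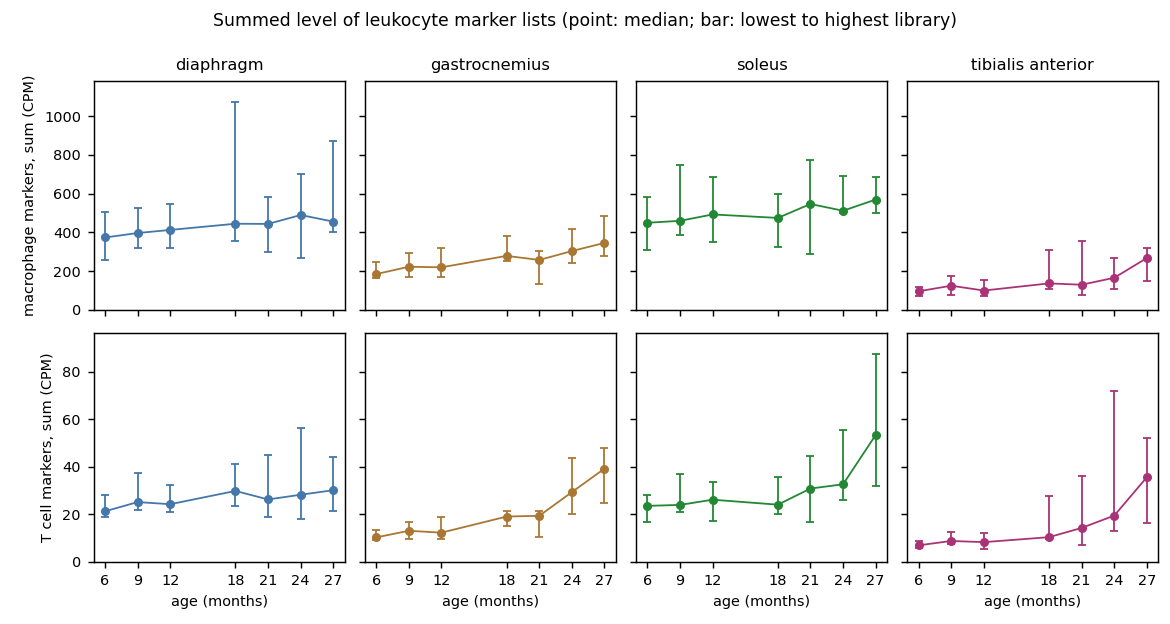
Summed level in CPM (linear axis from 0) of 16 macrophage markers (upper row) and 14 T cell markers (lower row) by age in months, with 1 column per muscle. Points are group medians and bars run from the lowest to the highest library; from 6 to 27 months the T cell median goes from 6.86 to 35.6 in the tibialis anterior and from 21.2 to 30.1 in the diaphragm.

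Of the further lists, dendritic cell markers had 0, 4, 1 and 4 of 5 tested higher and none lower in the order diaphragm, gastrocnemius, soleus and tibialis anterior. Of the few neutrophil markers tested (4, 2, 3 and 2), 3, 2, 1 and 2 were higher. In the diaphragm, where Cxcr2 rose, these were Mmp9 (1.74), Csf3r (0.84) and S100a9 (0.70), and the sum of the neutrophil list was 2.42 to 9.11 CPM at 6 months and 4.04 to 10.5 at 27 months. B cell markers could be tested in the diaphragm (10, of which Blk rose by 1.01) and soleus (2, none called), and their sum in the diaphragm was 0.746 to 6.29 CPM at 6 months and 0.976 to 23.3 at 27 months. Most adipocyte markers were called higher in the limb muscles (6 of 8, 7 of 9 and 6 of 8 in the gastrocnemius, soleus and tibialis anterior), while Lpl fell in the soleus and Adrb3 in the diaphragm. Their summed level was nevertheless lower in the soleus, at 2147 to 2494 CPM at 6 months and 981 to 1988 at 27 months. It was 269 to 420 and 332 to 518 in the gastrocnemius, and 208 to 306 and 269 to 511 in the tibialis anterior. Endothelial markers were lower in 0, 1, 1 and 1 of 12 and fibroblast markers higher in 0, 1, 1 and 3 and lower in 3, 1, 1 and 0 of 10. Muscle fibre genes were higher in 1, 0, 3 and 0 and lower in 0, 2, 0 and 3 of 10. The median changes of these 7 lists lay, where tested, between -0.41 (endothelial, gastrocnemius) and 1.60 (adipocyte, tibialis anterior). Without the 7 lymphocyte-rich libraries the members called at 27 months numbered 6, 17, 10 and 24 in the order diaphragm, gastrocnemius, soleus and tibialis anterior, the same counts as with them, although Cxcr3 in the diaphragm was no longer among them.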

How the data were processed

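The authors deposited 1 table per library with raw counts of reads per gene, made from stranded, ribosomal RNA-depleted total RNA with the ArrayStudio pipeline, rat genome reference B6.0 and an in-house gene model based on RefSeq. The version of the pipeline and the use of strand in counting are not given in the sources used here. Animals were bought young from a supplier, aged, and collected on 1 day per age. Groups were taken from the sample titles. Which libraries of different muscles share an animal is not given in the labels, and p-values measure the spread between libraries.

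Lines of 1 symbol were summed, leaving 17315 symbols. In R 4.3.3, limma 3.58.1 (voom) was fitted to all ages of a muscle after the edgeR 4.0.16 filter (minimum count 10, minimum total 15) and TMM scaling, with a prior count of 0.5 and Benjamini-Hochberg adjustment over all genes tested. Differences between muscles came from 1 fit of 28 groups, with levels scaled jointly, for genes that passed the filter in both muscles, a restriction added after the data were seen. Trends were chosen by BIC (gain of 6 over a constant, 2 more for a logistic curve). Bonferroni adjustment, a 2-fold threshold, RLE and total-count scaling, no filter, quality weights, edgeR quasi-likelihood, DESeq2 1.42.0, a replicate block and several sets of libraries were tried as alternatives. The fits were tested on simulated data.

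The symbol rule found 50 genes, of which 1 is not reported here and enters no count of members, although it stayed in the fits. Members and lists were chosen with earlier results of these data known. Members called in 2 or more muscles at 27 months are given in every group, and those called once or at another age by their change. Of the differences at 6 months, the 5 largest called of each pair are given. Genes of a list were not always named by size, since some were named for calls in several muscles or for their direction. Genes that overlap a member, Ptprc and the diaphragm value of Cd28 were named after their values were seen. Promoters come from RefSeq (GRCr8), all 49 members were matched by symbol in its gene table and 38 in its promoter table. Counting intervals cover counting error only.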

Additional observations from a re-analysis of the deposited data

Results flagged for a closer look

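In the gastrocnemius, the muscle with groups of 9 or 10 libraries, 5 of 51 gene groups held a library far from the others, where chance gives about 1 in 20. On the log2 CPM scale Ccl5 at 6 months was -6.24 in replicate 6, next to -3.22 in the nearest library, and Cxcl13 was -6.24 in the same library, next to -3.27. Both values stand for 0 counts. Cxcl10 at 6 months was 0.20 in replicate 9, next to -0.96. At 24 months Ccl5 was -3.20 in replicate 2, next to -1.68, and Cxcl16 was 3.43 in replicate 7, next to 2.54.

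The change from 6 to 27 months differed between muscles for 20 pairs of gene and muscles, by the interaction test. From the diaphragm to the tibialis anterior the change was larger by 2.09 ± 0.74 (adjusted p = 0.0126) for Ccl22, 0.61 ± 0.21 (adjusted p = 0.00884) for Ccl24, 1.12 ± 0.29 (adjusted p = 0.000483) for Ccr1 and 1.24 ± 0.42 (adjusted p = 0.00913) for Cx3cr1. The others of that pair were Cx3cl1 (0.71), Cxcl16 (1.28), Cxcl9 (0.70), Cxcr6 (2.39) and Xcr1 (2.46). Between the tibialis anterior and the soleus the difference was 0.94 ± 0.29 (adjusted p = 0.00486) for Ccr1 and 1.42 ± 0.40 (adjusted p = 0.00230) for Cx3cr1, beside Ccl5 (-1.66), Ccl9 (1.68), Cx3cl1 (0.83), Cxcl16 (1.04), Cxcr6 (2.62) and Xcr1 (1.63). Between the soleus and the diaphragm it was 1.05 for Ccl11, 1.69 for Ccl5 and -0.66 for Cxcl12. The Ccl24 difference fell under 1.5-fold with quality weights (0.58) and in edgeR (0.55).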

How the results depend on the processing

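The 92 named changes and differences were recomputed 1011 times in all, of which 905 kept direction and call, 106 kept direction only and 0 reversed. Bonferroni adjustment ended 50 of them and a 2-fold threshold 25, both stricter by construction, against 7 for edgeR, 4 each for quality weights and leaving out the 33 libraries that stand apart from their group, 3 each for no filter, DESeq2, the replicate block and the 6 and 27-month libraries of the pair alone, 2 each for total-count scaling and leaving out the lymphocyte-rich libraries, and 0 for RLE. Calls at 27 months lost to something other than these 2 stricter rules were Ccl12 and Cxcr3 in the diaphragm, Ccr1 and Cxcr5 in the gastrocnemius, Ccl24 in the soleus (0.57 without the libraries that stand apart) and Cxcl12 and Cxcr5 in the tibialis anterior. The cause was not tested where the test or the libraries changed. DESeq2 was applied only to changes within a muscle, of which 54 stayed called. The fit of the 6 and 27-month libraries of a pair covered only differences between muscles, of which 31 stayed called. Losses in these 2 settings are thus out of fewer results than those in the others.

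Under Bonferroni the members called at 27 months numbered 0, 10, 3 and 13 for diaphragm, gastrocnemius, soleus and tibialis anterior, those called at 9 to 24 months 0, 9, 1 and 8 (6, 16, 11 and 20 otherwise), and those with a trend 0, 11, 3 and 13. The differences in change then numbered 1, 3 and 2 for soleus against diaphragm, tibialis anterior against diaphragm and tibialis anterior against soleus, and those at 6 months 4 for the first and 6 for the last (11 and 13 otherwise). At 2-fold the diaphragm had 2 and the soleus 6 at 27 months and the soleus 5 with a trend. With total-count scaling the soleus had 16 at 27 months, the diaphragm 7 with a trend, and soleus against diaphragm 5 in place of 3. The diaphragm count at 9 to 24 months was 11 without the filter, in edgeR and in DESeq2 and 10 with quality weights. Without the libraries that stand apart, 6 diaphragm members had a trend and soleus against diaphragm had 5 differences. Without the third running series (12 months and 1 library of 21 months per muscle), 5 diaphragm members had a trend. Shares of all genes called are given here only for the main setting and, at 27 months, for no filter. Member counts under the other settings, the replicate block and the removal of lymphocyte-rich libraries included, therefore cannot be set against other genes.

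The replicate numbers were not taken to pair the libraries, since the labels do not tie a number to an animal and in only 3 of 21 comparisons of 2 muscles at 1 age did every same-numbered pair correlate over 0.1. As a hint from the data, 165 of 250 such pairs correlated over 0.1, 115 of 250 libraries matched their own number best, and the medians ran from -0.01 to 0.37. Medians for libraries of other numbers ran from -0.05 to 0.00. Some muscles may thus share rats under 1 number, while the main differences between muscles treated all libraries as independent. Between ages the medians of same-numbered pairs were -0.10 to 0.07. With the number as a replicate block, 7, 15, 12 and 24 members were called at 27 months, and 5, 11 and 7 differences in change in place of 3, 9 and 8. Ccl9 between tibialis anterior and soleus then had an adjusted p of 0.0694.

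The 17 members under the filter in every muscle could not be judged at this depth, and levels near 0 make fitted changes depend on the prior count. Under total-count scaling the median of all genes moved by 0.04, 0.28, 0.15 and 0.32.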

Other observations

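Some members under the filter on low counts were called at 27 months when it was dropped. In the tibialis anterior these were 8. Counts in its 12 young and 12 old libraries together were 21 and 76 for Ccl3, a ligand of Ccr1, 45 and 92 for Cxcr2, 11 and 38 for Ccr6, 1 and 11 for Ccl20, the Ccr6 ligand, 2 and 13 for Ccr3, 0 and 7 for Ccr4, the Ccl22 receptor, 3 and 11 for Xcl1, the Xcr1 ligand, and 2 and 10 for Cxcl17. Of these, Ccl3 had the smallest adjusted p (1.47 ± 0.45, adjusted p = 0.00310) and counts in 11 of 12 libraries at both ages. The gastrocnemius had 6 counts of Ccr9 at 6 months and 28 at 27 months, and 18 and 40 of Cxcl11, in 10 and 11 libraries. The soleus had 7 and 30 counts of Cxcl2, a neutrophil attractant. Chosen after their values were seen, these genes had at most 92 counts in any group named here.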
